A study of Homo sapiens with 6 samples.

Results

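HOX cluster genes encode homeodomain transcription factors that lie side by side in 4 clusters, HOXA on chromosome 7, HOXB on chromosome 17, HOXC on chromosome 12 and HOXD on chromosome 2. Genes of the same paralogue number in different clusters descend from a common ancestral gene. Low numbers act towards the head and high numbers towards the tail of the embryo, and the set of active HOX genes persists in adult cells, the gut epithelium among them, as a record of body position. The genes described here are all those with a platform symbol of HOXA, HOXB, HOXC or HOXD followed by a number, antisense genes left out, that had a probe set of their own on the array. They number 27 of the 18132 genes tested and 47 of the 44988 single-gene probe sets: 1 HOXA gene, 10 HOXB genes, 9 HOXC genes and 7 HOXD genes. The RefSeq annotation of GRCh38.p14 lists 39 such genes. The other 12 were not analysed here, namely HOXD3, HOXD11 and the HOXA genes other than HOXA2.

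The comparison is of 3 arrays of cells labelled CSF3 with 3 arrays of cells labelled Ctrl, all from total RNA of cells labelled HCT116, a human colorectal carcinoma line, grown in RPMI-1640 medium with serum and antibiotics. CSF3 is granulocyte colony-stimulating factor. The labels do not say what was done to the cells labelled CSF3, for how long, or whether replicates came from separate cultures. The p-values therefore cover the spread between these 6 arrays alone, which could be purely technical. Signals are on the log2 scale and a change is the mean of the CSF3 arrays minus the mean of the Ctrl arrays. In bulk RNA, fewer cells that express a gene and less of its RNA per cell cannot be told apart.

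Several properties of whole arrays differed with the groups. CSF3 itself read 5.96 ± 0.04 on the CSF3 arrays and 4.83 ± 0.30 on the Ctrl arrays (SD, n = 3 each). The name of that probe set marks it as able to hybridise with further transcripts. Hybridisation controls had a median signal of 8.36 ± 0.05 on the CSF3 arrays and 6.82 ± 0.07 on the Ctrl arrays. The gap between the 3' and 5' probe sets of GAPDH, a sign of RNA integrity, was 0.682 ± 0.003 on the CSF3 arrays and 0.306 ± 0.007 on the Ctrl arrays. The 333 olfactory receptor genes, which most tissues do not express and which describe dim signal here, had a median of 2.72 ± 0.06 on the CSF3 arrays and 2.23 ± 0.01 on the Ctrl arrays, whereas the 23 background probe sets of random sequence read 1.44 ± 0.01 on the CSF3 arrays and 1.42 ± 0.01 on the Ctrl arrays. The part of these differences in the results below was not tested. Of 11 colonic epithelium markers measured, 3 (KRT8, KRT18 and CDX2) lay above the 95th percentile of the olfactory receptor genes in each group. The epithelial genes CDH1 and EPCAM did not: CDH1 read 2.24 ± 0.04 on the CSF3 arrays and 2.20 ± 0.09 on the Ctrl arrays, and EPCAM read 3.30 ± 0.10 on the CSF3 arrays and 3.63 ± 0.05 on the Ctrl arrays. The mesenchymal genes ZEB1 and VIM, picked after their values were seen, read 7.73 ± 0.04 and 7.47 ± 0.02 on the CSF3 arrays and 8.90 ± 0.03 and 8.38 ± 0.04 on the Ctrl arrays. The 11 markers were thus mixed. The keratin genes KRT8 (5.06 on the CSF3 arrays, 6.37 on the Ctrl arrays) and KRT18 (7.48 and 7.26) lay above that percentile. The keratin genes KRT19 and KRT20 were, with CDH1 and EPCAM, among the 8 not above it. KRT19 read 3.07 on the CSF3 arrays and 2.61 on the Ctrl arrays, and KRT20 read 2.24 and 1.79. Of the markers of other cell types, 0 of 8 for fibroblasts, 0 of 4 for endothelium and 1 of 6 for leukocytes, CSF3R, lay above that percentile in either group. Their summed linear signals were 56.3 to 60.2, 63.4 to 65.1 and 69.1 to 71.9 on the CSF3 arrays, against 42.4 to 43.7, 41.1 to 43.8 and 46.4 to 49.4 on the Ctrl arrays. The olfactory receptor genes, dim like most of these markers, were also higher on the CSF3 arrays, by a median of 0.45 on the log2 scale. The sum for the colonic epithelium ran from 295 to 308 on the CSF3 arrays and from 308 to 312 on the Ctrl arrays. The brightest genes weigh most in such sums, here KRT18 and KRT8 for the epithelium and CSF3R for leukocytes. Of the 11 epithelial markers 6 rose and 2 fell (45.4% and 27.1% of all genes). KRT8 fell by 1.32 ± 0.09 and CDH17 rose by 1.05 ± 0.11 (SE) on their brightest probe sets. Whether cell content differed, and whether the cells were those that the label names, was not tested.

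Many HOX genes, like many genes on the arrays, gave a signal brighter than dim genes, and more HOX genes were higher than lower on the CSF3 arrays. By a limma adjusted p under 0.05, 17 of the 27 rose, 2 fell and the other 8 were not called, while 45.4% of all genes tested were called higher and 27.1% lower. The 17 that rose and the 2 that fell were also those whose groups did not overlap, against 47.2% of all genes that lay wholly higher and 29.1% wholly lower. The median change was 0.27 over the HOX genes, 0.16 over all genes and 0.45 over the olfactory receptor genes. These directions are those of the deposited scaling. With the olfactory receptor medians subtracted from each array, which lowers the median of all genes to -0.33, 1 HOX gene rose and 15 fell (background 3.65% and 60.3%), and the HOX median turned to -0.22. After quantile normalization 16 rose and 1 fell (39.2% and 20.1% of all genes), and after cyclic loess normalization 15 rose and 1 fell (36.3% and 21.4%). With array medians subtracted 15 rose and 2 fell (42.3% and 28.3%), with all probe sets of a gene averaged 14 rose and 1 fell (47.3% and 28.2%), and with the replicate number as a block 16 rose and 2 fell (44.6% and 26.4%).

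HOXC10 was called higher and HOXD8 lower under all 5 scalings, and no other HOX gene kept its call under all of them.

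**Figure D1:**
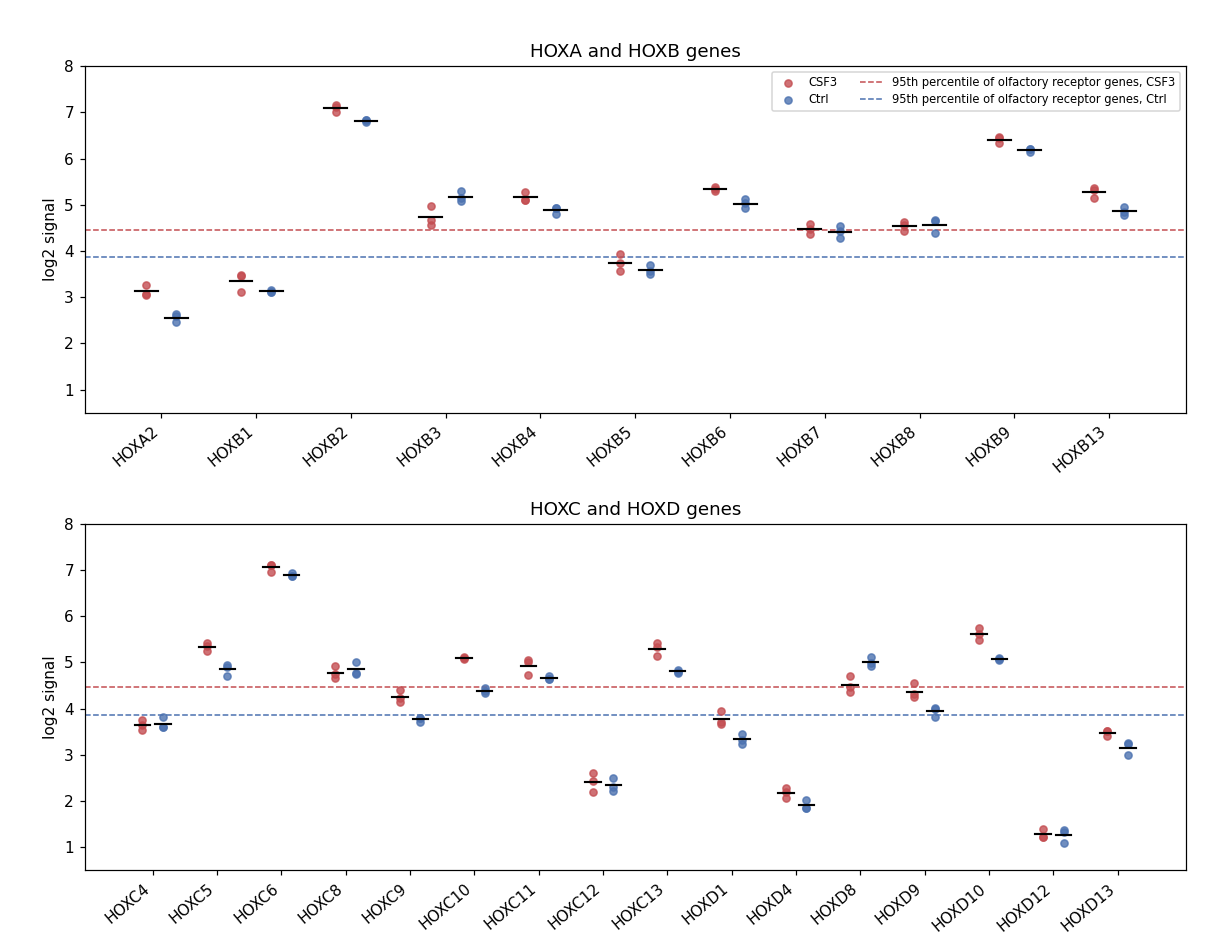
Log2 signal (vertical axis) of the brightest probe set of each HOX gene on every array, CSF3 at the left and Ctrl at the right of each gene, with points for single arrays and black bars for means of 3. Dashed lines mark the 95th percentile of the olfactory receptor genes, at 4.46 for CSF3 and 3.87 for Ctrl, and HOXB2, HOXB9 and HOXC6 lie well above both in both groups.

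By level, 16 of the 27 HOX genes lay above the 95th percentile of the olfactory receptor genes on the CSF3 arrays and 17 on the Ctrl arrays. Of all 18132 genes, 9027 lay above it on the CSF3 arrays and 10201 on the Ctrl arrays, so the HOX share was not far from that of all genes. That percentile was 4.46 on the CSF3 arrays and 3.87 on the Ctrl arrays. A further 8 HOX genes in each group lay between the median and this percentile, and 3 on the CSF3 arrays and 2 on the Ctrl arrays lay at or below the median. Signals of different probe sets depend on their probes, so these bands are no order of RNA amounts. HOXB was the cluster with the most members in the upper band, 8 of 10 in each group: HOXB2, HOXB3, HOXB4, HOXB6, HOXB7, HOXB8, HOXB9 and HOXB13. HOXC had 6 of 9 there in each group, namely HOXC5, HOXC6, HOXC8, HOXC10, HOXC11 and HOXC13. HOXD had 2 of 7 on the CSF3 arrays, HOXD8 and HOXD10, and on the Ctrl arrays HOXD9 as well. HOXA2 was in the middle band in both groups. The lowest band held HOXD4 and HOXD12 in both groups, and HOXC12 on the CSF3 arrays. By number, the upper band held 2 of 5 genes of paralogues 1 to 3 and 8 of 11 of paralogues 4 to 8 in each group, and of the 11 genes of paralogues 9 to 13 it held 6 on the CSF3 arrays and 7 on the Ctrl arrays. When all probe sets of a gene were averaged, 9 HOX genes were left in the upper band on the CSF3 arrays and 14 on the Ctrl arrays.

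Paralogues 9 to 13 pattern the hind part of the trunk, the limbs and the urogenital tract. Of these 11 genes, 9 rose and 2 were not called, with a median change of 0.41. Among paralogues 4 to 8, 5 of 11 rose and 1 fell, with a median of 0.15. Among paralogues 1 to 3, which pattern the hindbrain and neck, 3 of 5 rose and 1 fell, with a median of 0.27. Over all genes 45.4% rose and 27.1% fell, and the 5 of 11 for paralogues 4 to 8 equals that share of rises. After cyclic loess normalization the median was 0.44 for paralogues 9 to 13 and 0.05 for paralogues 4 to 8. With olfactory receptor medians subtracted it was -0.08 and -0.34. The difference between the paralogue groups was not tested. By cluster, 5 of 10 HOXB genes rose and 1 fell, 6 of 9 HOXC genes rose and 3 were not called, and 5 of 7 HOXD genes rose and 1 fell, with medians of 0.23, 0.26 and 0.32, and the HOXB count is near the 45.4% and 27.1% of all genes. With olfactory receptor medians subtracted these 3 medians were -0.26, -0.23 and -0.17.

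**Figure D2:**
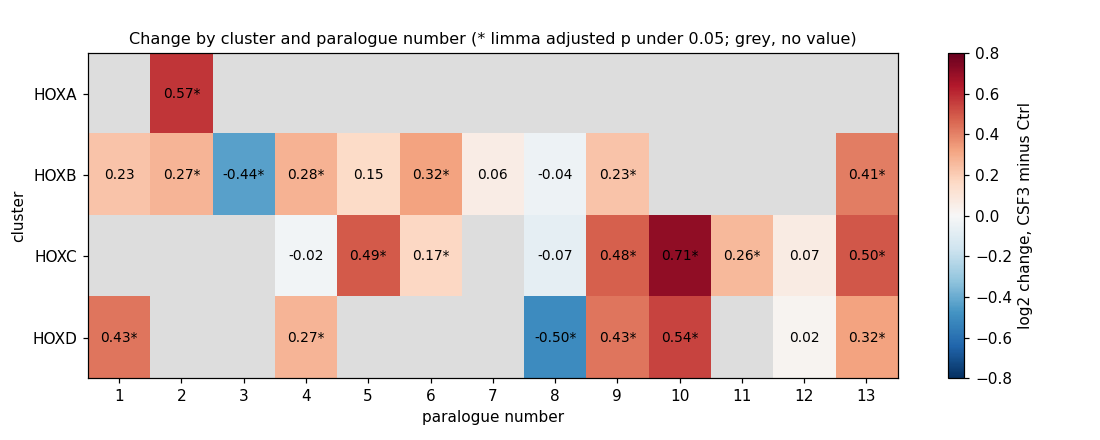
Log2 change, CSF3 minus Ctrl (colour and printed value), of each HOX gene by cluster (rows) and paralogue number (columns). Asterisks mark a limma adjusted p under 0.05 and grey cells have no value. In the columns 9 to 13 all values lie above 0, and the lowest values are -0.50 for HOXD8 and -0.44 for HOXB3.

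HOXC10, a paralogue active in the hind trunk and hindlimb of vertebrate embryos, rose most. Its signal was 5.10, 5.12 and 5.08 on the CSF3 arrays and 4.34, 4.45 and 4.38 on the Ctrl arrays. The lowest CSF3 array lay far above the highest Ctrl array. The difference was 0.71 ± 0.05 (SE), a ratio of 1.64 if the scale is log2 (limma adjusted p = 4.39e-05). It was 0.88 after quantile normalization, 0.82 after cyclic loess normalization and 0.22 with olfactory receptor medians subtracted (limma adjusted p = 0.0235). HOXC10 has 1 probe set, so no other one bears on this value.

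HOXD10, the paralogue of HOXC10 on chromosome 2, showed a rise on both of its probe sets. The brightest read 5.49, 5.74 and 5.61 on the CSF3 arrays and 5.08, 5.04 and 5.09 on the Ctrl arrays, without overlap. It changed by 0.54 ± 0.07 (limma adjusted p = 0.000557), or by 0.05, not called, with olfactory receptor medians subtracted. The dimmer probe set changed by 0.78. HOXD9, the next gene of that cluster, read 4.31, 4.55 and 4.24 on the CSF3 arrays and 3.82, 4.01 and 3.99 on the Ctrl arrays. Its change of 0.43 ± 0.09 (limma adjusted p = 0.00511) was matched by 0.46 on the other probe set, and turned to -0.06, not called, with olfactory receptor medians subtracted.

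HOXD8, the neighbour of HOXD9 on the side of the low numbers, went the other way. The CSF3 arrays gave 4.35, 4.48 and 4.70, and the Ctrl arrays 4.99, 5.11 and 4.93, so that every CSF3 array lay below every Ctrl array. HOXD8 fell by 0.50 ± 0.10 on the log2 scale (limma adjusted p = 0.00279), a ratio of 0.706. Its 2 probe sets gave -0.50 and -0.52, and both were called lower, although their names mark them as able to hybridise with further transcripts. Under the other scalings the change lay between -0.99 and -0.33, called in each. HOXD8 and HOXD10 thus moved in opposite directions within a single cluster on the same arrays.

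The RefSeq start windows of these HOXD genes and the window that HOXC4 and HOXC5 share are printed for that contrast, as 250 bases before to 50 bases after the annotated start in GRCh38.p14. Capitals mark the letters TTTAT or their reverse complement, the core bound by CDX factors, which act upstream of HOX genes in the embryonic gut.
HOXD8, chr2:176129455-176129754, plus strand: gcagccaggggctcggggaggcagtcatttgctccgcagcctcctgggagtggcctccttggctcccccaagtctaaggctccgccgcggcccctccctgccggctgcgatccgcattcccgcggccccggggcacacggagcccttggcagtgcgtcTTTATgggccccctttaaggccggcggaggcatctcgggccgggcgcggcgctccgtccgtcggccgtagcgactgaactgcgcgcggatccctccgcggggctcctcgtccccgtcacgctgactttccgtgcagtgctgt
HOXD10, chr2:176116528-176116827, plus strand: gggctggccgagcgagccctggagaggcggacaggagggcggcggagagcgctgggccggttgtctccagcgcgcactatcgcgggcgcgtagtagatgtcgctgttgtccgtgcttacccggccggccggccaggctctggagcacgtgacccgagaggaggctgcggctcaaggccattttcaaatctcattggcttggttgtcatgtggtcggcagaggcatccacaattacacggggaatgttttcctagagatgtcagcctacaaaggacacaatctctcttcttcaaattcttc
HOXC4 and HOXC5, chr12:54016638-54016937, plus strand: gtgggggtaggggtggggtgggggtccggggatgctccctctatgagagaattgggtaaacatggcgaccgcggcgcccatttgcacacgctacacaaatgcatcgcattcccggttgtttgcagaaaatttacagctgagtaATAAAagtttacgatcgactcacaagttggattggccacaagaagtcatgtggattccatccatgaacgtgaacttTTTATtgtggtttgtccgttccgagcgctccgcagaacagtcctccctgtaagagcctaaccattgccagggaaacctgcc

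The HOXD8 window held 1 such match and the HOXC window 2, while these letters were not in the HOXD10 window. Of 34796 promoter windows of the same length in the RefSeq table, 35.0% held a match on either strand. The HOXD8 window had 34 CpG dinucleotides and the HOXD10 window 23, more than 84.4% and 64.2% of all windows. Windows were available for 10 of the 27 HOX genes, of which 6 held TTTAT. Only 1, HOXD13, held the TATA box TATAAA, present in 11.6% of all windows. The window shared by HOXC4 and HOXC5 enters the 10 and the 6 for both genes, whereas the 34796 windows differ in sequence. The composite site of HOX and PBX proteins searched as TGATTNAT was in the HOXA2 window alone among the 10, and in 2.82% of all. A match to the 10-letter consensus of NF-κB was in the HOXA2 window and in the window shared by HOXC4 and HOXC5, and in 11.3% of all. These matches are descriptions of letters, and no binding was measured.

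HOXC5, which shares that annotated start with HOXC4, rose, and HOXC4 was not called. HOXC5 gave 5.41, 5.35 and 5.25 on the CSF3 arrays and 4.95, 4.90 and 4.70 on the Ctrl arrays, a change of 0.49 ± 0.08 (limma adjusted p = 0.00134) that became -0.0009 with olfactory receptor medians subtracted. HOXC4 gave 3.64, 3.76 and 3.54 on the CSF3 arrays and 3.59, 3.59 and 3.82 on the Ctrl arrays, and its groups overlapped. That change was -0.02 ± 0.09 (limma adjusted p = 0.813), so a shared annotated start did not go with a shared value here. HOXC6, whose RefSeq gene begins at the same base, gave 7.10, 7.10 and 6.96 on the CSF3 arrays and 6.93, 6.87 and 6.87 on the Ctrl arrays. Its change of 0.17 ± 0.06 was close to the threshold (limma adjusted p = 0.0396) and turned to -0.32 with olfactory receptor medians subtracted. The call was lost when Ctrl replicate 1, 2 or 3 or CSF3 replicate 1 or 2 was left out. The limma adjusted p-values were then 0.0629 to 0.114. The other probe sets of HOXC6 gave 0.06 and -0.21. When every probe set was tested, the -0.21 was called lower (limma adjusted p = 0.0279) and the brightest was not called (limma adjusted p = 0.0524). The mean of the HOXC6 probe sets changed by 0.0035, not called, so HOXC6 has no settled direction.

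HOXC13 and HOXB13, of the last paralogue group, rose. HOXC13, known for its part in hair and nail formation, read 5.15, 5.42 and 5.33 on the CSF3 arrays and 4.84, 4.77 and 4.80 on the Ctrl arrays. The change was 0.50 ± 0.08 (limma adjusted p = 0.00105), or 0.0053, not called, with olfactory receptor medians subtracted. HOXB13, a regulator of prostate development that is also active in the hindgut, read 5.32, 5.35 and 5.14 on the CSF3 arrays and 4.95, 4.78 and 4.85 on the Ctrl arrays, without overlap. It changed by 0.41 ± 0.08 (limma adjusted p = 0.00233), or by -0.08 with olfactory receptor medians subtracted. Of its other 3 probe sets 1 fell, with a change of -0.37, and 2 were not called, and the mean of all 4 changed by 0.09 (limma adjusted p = 0.132). The size and direction of HOXB13 therefore rest on the probe set. HOXD13, which shapes the digits, rose in the middle band, with 3.52, 3.52 and 3.40 on the CSF3 arrays and 3.23, 3.25 and 2.99 on the Ctrl arrays. That change of 0.32 ± 0.08 (limma adjusted p = 0.0100) was -0.17 with olfactory receptor medians subtracted, and its other probe set gave 0.61.

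Of the remaining paralogues 9 to 12, HOXB9 rose on a bright probe set: 6.44, 6.34 and 6.47 on the CSF3 arrays and 6.15, 6.20 and 6.21 on the Ctrl arrays. The change of 0.23 ± 0.06 (limma adjusted p = 0.00947) became 0.48 after quantile normalization and -0.26 with olfactory receptor medians subtracted, called each time. HOXC9 gave 4.22, 4.39 and 4.13 on the CSF3 arrays and 3.72, 3.81 and 3.80 on the Ctrl arrays. It changed by 0.48 ± 0.08 (limma adjusted p = 0.00121), or by -0.01 with olfactory receptor medians subtracted. HOXC11, with 5.05, 4.72 and 5.01 on the CSF3 arrays and 4.65, 4.70 and 4.65 on the Ctrl arrays, changed by 0.26 ± 0.09 (limma adjusted p = 0.0333). The HOXC11 groups were set apart by a narrow margin, CSF3 replicate 2 lying just above the highest Ctrl array, and the value turned to -0.23 with olfactory receptor medians subtracted. Its call was lost without any single array other than CSF3 replicate 2, with limma adjusted p-values from 0.0662 to 0.0940, and its other probe set gave 0.02. HOXC12 (0.07 ± 0.12) and HOXD12 (0.02 ± 0.09) were not called and lay among the dim genes.

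HOXB2 and HOXB4 rose and HOXB3, the gene between them, fell on its brightest probe set. HOXB2, a hindbrain patterning gene, read 7.16, 7.01 and 7.12 on the CSF3 arrays and 6.80, 6.83 and 6.84 on the Ctrl arrays, a change of 0.27 ± 0.06 (limma adjusted p = 0.00435). HOXB4, known for expanding blood stem cells when raised, read 5.10, 5.11 and 5.27 on the CSF3 arrays and 4.92, 4.81 and 4.92 on the Ctrl arrays, a change of 0.28 ± 0.07 (limma adjusted p = 0.00871). Both turned to calls in the other direction with olfactory receptor medians subtracted, with -0.22 for HOXB2 and -0.21 for HOXB4, and HOXB4 lost its call when its 2 probe sets were averaged (0.07). HOXB3 read 4.98, 4.57 and 4.68 on the CSF3 arrays and 5.15, 5.30 and 5.09 on the Ctrl arrays. Its brightest probe set fell by 0.44 ± 0.11 on the log2 scale (limma adjusted p = 0.00975). The call was lost after quantile normalization (limma adjusted p = 0.101) and cyclic loess normalization (limma adjusted p = 0.0543). The other 3 probe sets of HOXB3 gave 0.17, -0.21 and 0.24, and the mean of all 4 changed by -0.06, so HOXB3 has no settled direction.

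HOXB6 rose, with 5.34, 5.39 and 5.31 on the CSF3 arrays and 4.93, 5.03 and 5.12 on the Ctrl arrays. The change was 0.32 ± 0.06 (limma adjusted p = 0.00359), or -0.17, not called, with olfactory receptor medians subtracted. Its neighbours HOXB5, HOXB7 and HOXB8, with changes of 0.15 ± 0.10, 0.06 ± 0.09 and -0.04 ± 0.09, overlapped between the groups and were not called. HOXB7 read 4.37, 4.47 and 4.59 on the CSF3 arrays and 4.28, 4.44 and 4.54 on the Ctrl arrays. HOXB8 read 4.62, 4.43 and 4.56 on the CSF3 arrays and 4.65, 4.68 and 4.39 on the Ctrl arrays. Both lay in the upper band in both groups. HOXB5 passed the test without CSF3 replicate 3 (0.24, limma adjusted p = 0.0435). HOXC8, also in the upper band, read 4.92, 4.75 and 4.66 on the CSF3 arrays and 4.75, 4.78 and 5.01 on the Ctrl arrays, and its change of -0.07 ± 0.09 was not called. With olfactory receptor medians subtracted HOXB5, HOXB7, HOXB8 and HOXC8 were called lower, with changes from -0.56 to -0.34. As deposited, HOXD8 was the paralogue numbered 8 that was called.

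HOXA2, HOXB1, HOXD1 and HOXD4 lay in the middle or lowest band in both groups. HOXA2, which patterns the second branchial arch and stands alone for its cluster, read 3.27, 3.08 and 3.04 on the CSF3 arrays and 2.59, 2.63 and 2.47 on the Ctrl arrays. The change was 0.57 ± 0.08 (limma adjusted p = 0.000591). It was 0.39 after quantile normalization and 0.08, not called, with olfactory receptor medians subtracted, and 66.4% of olfactory receptor genes lay below it on the Ctrl arrays. No fold is given for HOXA2, which was not above dim genes in either group. HOXD1 read 3.94, 3.71 and 3.66 on the CSF3 arrays and 3.24, 3.46 and 3.33 on the Ctrl arrays, and changed by 0.43 ± 0.09 (limma adjusted p = 0.00501), or by -0.06 with olfactory receptor medians subtracted. HOXD4, at 2.06, 2.20 and 2.28 on the CSF3 arrays and 2.03, 1.84 and 1.85 on the Ctrl arrays, changed by 0.27 ± 0.08 (limma adjusted p = 0.0179). The HOXD4 call was lost after quantile normalization (0.06), turned to -0.22 with olfactory receptor medians subtracted, and was lost without Ctrl replicate 2 or 3 or CSF3 replicate 3 (limma adjusted p-values from 0.0506 to 0.0652). HOXB1, the hindbrain gene at the end of its cluster, was not called (0.23 ± 0.10, limma adjusted p = 0.0715), but passed without CSF3 replicate 3 (0.35, limma adjusted p = 0.00207). Of the other 2 probe sets of HOXB1, 1 rose, with 0.51.

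Changes of at least 0.5 on the log2 scale were seen in 4 HOX genes, the rises of HOXA2, HOXC10 and HOXD10 and the fall of HOXD8, where 15.0% of all genes rose and 14% fell by as much.

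**Figure D3:**
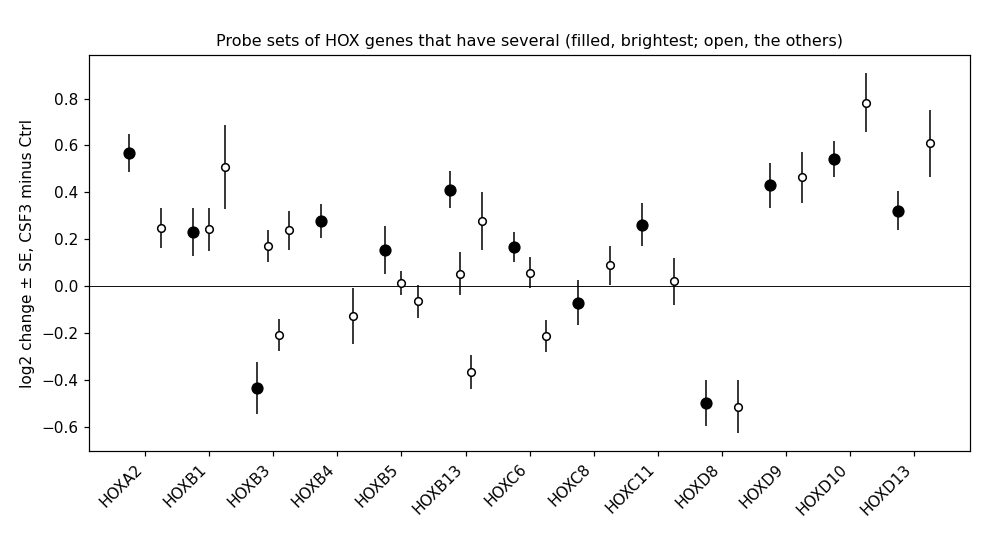
Log2 change ± SE, CSF3 minus Ctrl (vertical axis), of every probe set of the 13 HOX genes that have several, the brightest filled and the others open. HOXD8 has both of its probe sets below 0 and HOXD10 both above, while HOXB3 and HOXB13 have called probe sets on either side of 0.

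Over all 47 HOX probe sets, 22 rose, 6 fell and 19 were not called, against 36.7% and 28.8% of all single-gene probe sets. The median change was 0.23 over the HOX probe sets and 0.10 over all single-gene probe sets. Of the 13 genes with several probe sets, 6 had changes of either sign (HOXB3, HOXB4, HOXB5, HOXB13, HOXC6 and HOXC8), and in 2 of them, HOXB3 and HOXB13, probe sets were called in opposite directions. All probe sets were called higher for HOXA2, HOXD9, HOXD10 and HOXD13, and lower for HOXD8.

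Change depended on level across the arrays, and the HOX genes were set beside genes of like level in ranges chosen after the values were seen. Of the 9 HOX genes with a mean signal above 5 and up to 7, all 9 rose, with a median of 0.32, where 24.6% of the 5064 genes in that range rose and 49.3% fell, with a median of -0.17. They were HOXB2, HOXB4, HOXB6, HOXB9, HOXB13, HOXC5, HOXC6, HOXC13 and HOXD10. These counts rest on the brightest probe set of each gene. With all probe sets of a gene averaged, HOXB4 (0.07), HOXB13 (0.09) and HOXC6 (0.0035) were no longer called. The others, most of which have 1 probe set, kept their calls. The limit of 5 leaves both genes that fell just below it: of the 9 HOX genes above 4 and up to 5, 4 rose and 2 fell, with a median of 0.06, where 45.9% of genes rose and 30.3% fell. With array medians subtracted 8 of the 9 brighter HOX genes rose, where 22.8% of genes in the range rose and 51.3% fell. After quantile normalization all 9 rose again, where 42.4% of genes in the range rose and 30.8% fell, and after cyclic loess normalization too, where 40% rose and 32.8% fell. With olfactory receptor medians subtracted 4 of the 9 fell and 5 were not called, against 82.2% of genes in the range that fell and 2.53% that rose. Of the 18 HOX genes with a mean signal up to 5, 8 rose and 2 fell, where 60.7% of genes in that range rose and 11.2% fell. The wider GAPDH gap and the brighter hybridisation controls were on the same CSF3 arrays as the rises and the falls, and their part in either was not tested.

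**Figure D4:**
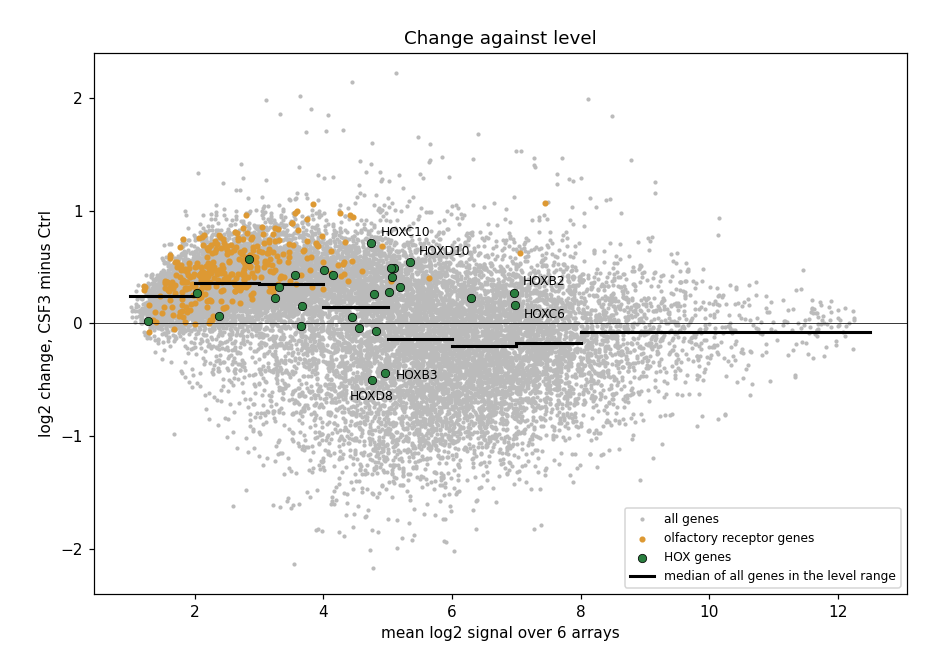
Log2 change, CSF3 minus Ctrl, against the mean log2 signal over 6 arrays, for all 18132 genes (grey), the olfactory receptor genes (orange) and the HOX genes (green), with black bars for the median of all genes in ranges of level. The medians of all genes lie above 0 in the dim ranges and below 0 above a signal of 5, where the 9 HOX genes lie above 0.

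**Figure D5:**
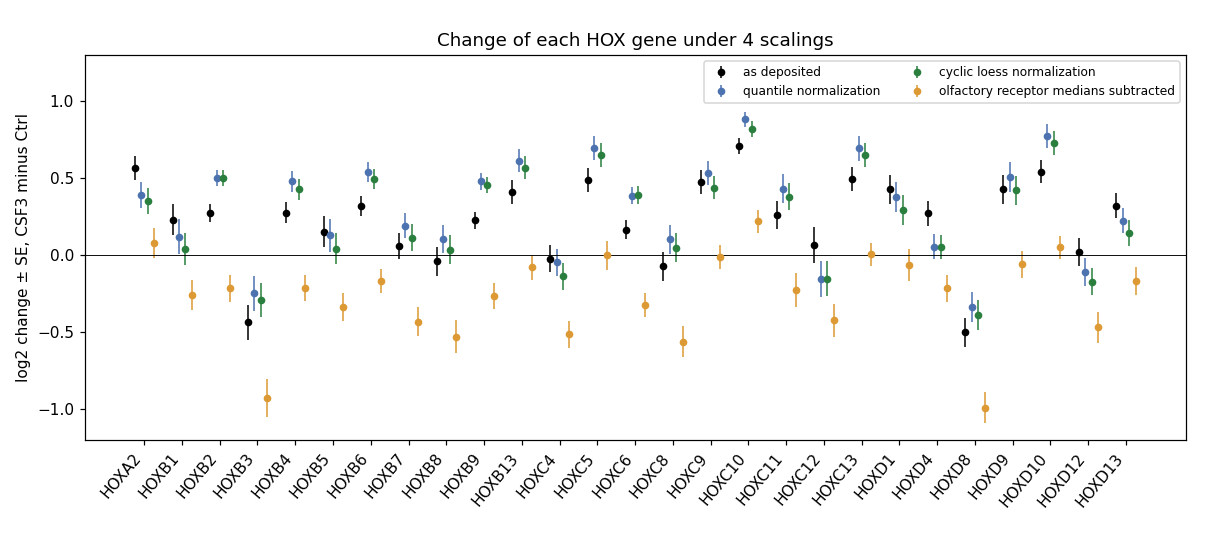
Log2 change ± SE, CSF3 minus Ctrl (vertical axis), of each HOX gene as deposited, after quantile normalization, after cyclic loess normalization and with olfactory receptor medians subtracted. HOXC10 stays above 0 and HOXD8 below 0 under each, while most others lie near or below 0 under the last.

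HOX proteins bind DNA together with the TALE homeodomain cofactors of the PBX, MEIS and PKNOX families, and these were divided. Of 8 measured of 9 listed, 3 rose and 3 fell, where 45.4% of all genes rose and 27.1% fell, with a median of 0.10 against 0.16 over all genes. PBX3 fell by 0.89 ± 0.07 on the log2 scale, with 7.25 ± 0.08 on the CSF3 arrays and 8.13 ± 0.08 on the Ctrl arrays (SD, n = 3 each, limma adjusted p = 4.60e-05), and it fell under all 5 scalings. MEIS2 fell as deposited (-0.35 ± 0.10), and was not called after quantile normalization (-0.18). PBX4 (0.49 ± 0.09) and PKNOX2 (0.31 ± 0.08) rose, but changed by 0.0051 and -0.18, not called, with olfactory receptor medians subtracted.

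Polycomb complexes keep silent HOX genes shut, and their genes went both ways as deposited. Of 30 measured of 35 listed, 5 rose, 16 fell and 9 were not called, with a median of -0.16, while after quantile normalization 9 rose and 7 fell (39.2% and 20.1% of all genes), and with olfactory receptor medians subtracted 27 fell (60.3%). As deposited 45.4% of all genes rose and 27.1% fell, but among the brighter 9066 of the 18132 genes, where most of these genes lie, 27.1% rose and 46.8% fell, so the Polycomb counts are near those of genes of like level. Without Ctrl replicate 1, Ctrl replicate 3 or CSF3 replicate 2, 10 fell. The catalytic subunit gene EZH2 changed by -0.08 ± 0.06 and was not called. PHC2, a subunit of the PRC1 complex, fell by 0.88 ± 0.06 and RBBP7, a histone-binding subunit, by 0.76 ± 0.06, each under all 5 scalings. ASXL1, which acts in deubiquitination of histone H2A, and PHC3 had changes of -1.25 ± 0.09 and -0.78 ± 0.07 on their brightest probe sets, but other probe sets of these genes went up to 0.53 and 0.35.

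The MLL and Trithorax group, which keeps active HOX genes open, was also split. Of 25 measured of 26 listed, 7 rose and 11 fell, with a median of -0.10, while after quantile normalization 13 rose and 9 fell (39.2% and 20.1% of all genes) and with olfactory receptor medians subtracted 22 fell (60.3%). As deposited the counts are near the 27.1% that rose and 46.8% that fell among the brighter genes, against 45.4% and 27.1% of all genes. PSIP1, which tethers MLL to chromatin, fell by 0.84 ± 0.05 on its brightest probe set, while another of its probe sets gave 0.49. NCOA6 and PAXIP1, subunits of MLL3 and MLL4 complexes, fell under all 5 scalings, with changes of -0.98 ± 0.07 and -0.67 ± 0.07 as deposited. MLLT1, of the elongation complexes, changed by -0.74 ± 0.07, with probe sets up to 0.06.

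Regulators upstream of HOX genes were described in the same way. Of 13 measured of 15 listed, 10 rose and 1 fell as deposited (45.4% and 27.1% of all genes), with a median of 0.32. Their levels were mixed, with 6 in the upper band on the CSF3 arrays and 7 on the Ctrl arrays. Among the dimmer 9066 of all genes 63.6% rose and 7.49% fell, with a median of 0.31, and among the brighter 9066 27.1% rose and 46.8% fell. With olfactory receptor medians subtracted 5 of the upstream regulators fell (60.3% of all genes). CDX2, which sets intestinal identity and activates posterior HOX genes, read 4.79 ± 0.02 on the CSF3 arrays and 4.45 ± 0.05 on the Ctrl arrays, a change of 0.34 ± 0.05 (limma adjusted p = 0.000967) that was -0.15 with olfactory receptor medians subtracted. CDX1 changed by 0.34 ± 0.06, or by -0.15 under that scaling. It lay in the middle band in both groups, and its other probe set gave 0.03. The retinoic acid receptor gene RARB (0.53 ± 0.05) and ALDH1A2 (0.49 ± 0.09), which makes retinoic acid, rose as deposited and changed by 0.04 and 0.0022 under that scaling, and neither was above dim genes.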

How the data were processed

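Per the labels' protocols, total RNA was labelled with biotin. Affymetrix arrays are named in the series' design text. The authors deposited log2 values for 49395 probe sets and 6 arrays, as far as the values show (0.81 to 12.7). How background was corrected, how arrays were normalized and which logarithm was used: not given in the sources used here. Under another base folds would change and tests would not. Detection calls were not used. Precision is limited by having 3 arrays per group.

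Gene names came from the platform annotation. The 1832 probe sets with several genes were left out. Entrez identifiers matched 44961 of the 44988 single-gene probe sets to RefSeq (GRCh38.p14), and 0 symbols differed. The brightest probe set stood for its gene. CSF3 minus Ctrl was fitted over all 18132 genes by limma 3.58.1 (lmFit, eBayes; R 4.3.3), with Benjamini-Hochberg adjustment over all genes and a threshold of 0.05. Values are mean ± SD, changes ± SE.

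Named were the HOX genes in the upper band or with a called change of at least 0.5, the others by band and direction, and of each list the 4 genes with the smallest p. EZH2 was added for its role, its value known. Members and lists were chosen with earlier results of these data known. Alternatives were quantile and cyclic loess normalization, array medians, olfactory receptor medians, a filter on the 30% dimmest genes, means or separate tests of probe sets, eBayes with trend, array weights, a replicate block and leaving out arrays. The 5 scalings are the deposited values and the first 4 of these. In simulated data with 18132 genes, 12%, 44%, 88% and 100% of 50 genes changed by 0.25, 0.5, 1 and 2 were recovered, and 6 unchanged genes were called. The simulation changed 50 genes at each size and no others, whereas 13148 genes were called in the real comparison. Its rates therefore do not describe that comparison.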

Additional observations from a re-analysis of the deposited data

Results flagged for a closer look

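Signals outside the main comparison were higher on every CSF3 array than on every Ctrl array in 4 cases. The probe set shared by HOXD3 and HOXD4, left out because it names 2 genes, read 3.14 ± 0.05 on the CSF3 arrays and 2.73 ± 0.05 on the Ctrl arrays (SD, n = 3 each), a difference of 0.41. The probe set shared by HOXD10 and HOXD11 read 2.01 ± 0.17 on the CSF3 arrays and 1.58 ± 0.08 on the Ctrl arrays, a difference of 0.43. Both lay below the olfactory receptor 95th percentile, and the olfactory receptor genes differed by a median of 0.45. The median of the 18 hybridisation control probe sets differed by 1.53, and that of the 27 poly-A control probe sets by 1.64.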

How the results depend on the processing

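With olfactory receptor medians subtracted, the HOX median reversed to -0.22, 1 HOX gene rose and 15 fell. Under that scaling 0 TALE genes rose and 5 fell, 0 Polycomb genes rose and 27 fell, 0 MLL and Trithorax genes rose and 22 fell, and 0 upstream regulators rose and 5 fell, by limma. After quantile normalization the HOX median was 0.39, 1 HOX gene and 1 TALE gene fell, 9 Polycomb genes rose and 7 fell, 13 MLL and Trithorax genes rose, and 0 upstream regulators fell. In each of these counts of 0, 0 genes also passed at an unadjusted p under 0.05. After cyclic loess normalization 1 HOX gene fell, and 9 Polycomb genes rose and 8 fell. With all probe sets of a gene averaged, 1 HOX gene fell, and 9 lay in the upper band on the CSF3 arrays and 14 on the Ctrl arrays. Leaving out an array gave 14 to 17 HOX genes higher, 2 lower in each case, a HOX median from 0.24 to 0.30 and 10 to 16 Polycomb genes lower. The 10 came without Ctrl replicate 1, Ctrl replicate 3 or CSF3 replicate 2. Changes of sign of single genes were HOXB1 -0.26, HOXB2 -0.22, HOXB4 -0.21, HOXB5 -0.34, HOXB6 -0.17, HOXB7 -0.43, HOXB9 -0.26, HOXB13 -0.079, HOXC5 -0.00092, HOXC6 -0.32, HOXC9 -0.014, HOXC11 -0.23, HOXC12 -0.42, HOXD1 -0.063, HOXD4 -0.22, HOXD9 -0.060, HOXD12 -0.47 and HOXD13 -0.17 with olfactory receptor medians subtracted. They were HOXB8 0.11, HOXC8 0.10, HOXC12 -0.16 and HOXD12 -0.11 after quantile normalization, and HOXB8 0.037, HOXC8 0.050, HOXC12 -0.15 and HOXD12 -0.17 after cyclic loess normalization. Subtracting array medians gave HOXD12 -0.0034, and averaging probe sets gave HOXC8 0.0078. Leaving out an array gave HOXB7 from -0.011 to 0.12, HOXB8 from -0.13 to 0.014, HOXC4 from -0.082 to 0.052, HOXC8 from -0.14 to 0.0080, HOXD12 from -0.065 to 0.072 and HOXC12 from -0.026 to 0.17. The cause of these shifts was not tested. Same-numbered arrays of the groups correlated in their deviations by 0.04, 0.03 and 0.03, so the labels' numbers are not known to pair them, although each array correlated best with its own number. With the replicate number as a block, 16 HOX genes rose and 2 fell, and 12868 genes were called in all, against 13148 without it. Without detection calls, signals near those of olfactory receptor genes cannot be told from absence.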

Other observations

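Genes that flank the HOX clusters went both ways as deposited. Of 18 measured of 19 listed, 5 rose and 8 fell, with a median change of -0.10, where 45.4% of all genes rose and 27.1% fell. Among the brighter 9066 of the 18132 genes, where most flanking genes lie, 27.1% rose and 46.8% fell, so these counts are near those of genes of like level. LNPK, a neighbour of HOXD that encodes a protein of the endoplasmic reticulum, read 4.94 ± 0.08 on the CSF3 arrays and 5.91 ± 0.03 on the Ctrl arrays (SD, n = 3 each) and fell by 0.97 ± 0.06 on the log2 scale (limma adjusted p = 2.35e-05). ATF2, which encodes a stress-activated transcription factor and lies farther out on that side, had a change of -0.95 ± 0.07 on its brightest probe set, with other probe sets up to 0.32. Near HOXA, HIBADH, an enzyme of valine breakdown, fell by 0.96 ± 0.06, and SNX10, a sorting nexin of endosomes, fell by 0.77 ± 0.05. LNPK, HIBADH and SNX10 fell under all 5 scalings. EVX2, the homeobox gene next to HOXD13, changed by 0.05 ± 0.06 and was not called (limma adjusted p = 0.455). PRAC1, a gene between HOXB13 and HOXB9 known from prostate and distal colon, was dim in both groups, with 2.06 ± 0.13 on the CSF3 arrays and 2.11 ± 0.15 on the Ctrl arrays. EVX2 and PRAC1 were named after their values were seen. Of 23 noncoding genes of the clusters that were listed, 1 was measured: HOXB-AS3 changed by 0.38 ± 0.11 (limma adjusted p = 0.0171). After quantile normalization it was no longer called (0.29), and the value turned to -0.11, not called, with olfactory receptor medians subtracted.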
